A study of Mus musculus with 6 samples.

Results

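The enzymes and the carrier of arginine metabolism were followed as 4 genes, Nos2, Odc1, Ass1 and Slc7a2, of the 33696 features counted in CD45+ cells of mouse mammary tumours. Each gene was found by its symbol, which labels 1 feature apiece (Nos2 ENSMUSG00000020826, Odc1 ENSMUSG00000011179, Ass1 ENSMUSG00000076441 and Slc7a2 ENSMUSG00000031596). The group was chosen by levels measured in these same libraries, so the levels below are descriptions and nothing in them is a test. The series' title names MERTK inhibition and cyclophosphamide in triple negative breast cancer. Live cells positive for CD45, a surface protein of immune cells, were sorted and their RNA was counted per cell by droplet 3′ sequencing. The 5 libraries are labelled by treatment as MRX, CTX, Combined, ctxd18t and combod18t, 1 library each, and the last pair carries 18 after a d in its name. A sixth, VC, was not analysed here beyond its list of barcodes. The labels do not spell these names out, and they give no strain, age, tumour line or dose. The labels name mammary tumour as the tissue of every sample, while the shared protocol text also speaks of taking spleens, and whether any sorted cells came from spleen is not given in the sources used here. The protocol text, the same on every sample, speaks of day 7 mice treated 3 hours before harvest. Combined was compared with CTX and combod18t with ctxd18t, pairs that share no library, and CTX and Combined were each compared with MRX, which both comparisons share.

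Arginine feeds several routes in myeloid cells. The inducible nitric oxide synthase turns it into nitric oxide and citrulline, and ornithine decarboxylase commits ornithine, another product of arginine, to polyamines. Argininosuccinate synthase begins the return of citrulline to arginine, and cationic amino acid carriers bring arginine into the cell. T cells depend on arginine supplied from outside, and Nos2 is a classical product of macrophages that meet interferon and microbial signals.

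RefSeq promoter windows were matched for 2 of the 4 genes, Ass1 and Odc1, and are shown because both genes were carried by T-like cells as well as by macrophages. Each window is the 250 bases before the annotated start on GRCm38.p6, plus strand, and capitals mark a CACGTG motif. The Ass1 window lies at chr2:31470020-31470269 and the Odc1 window at chr12:17544623-17544872.
Ass1: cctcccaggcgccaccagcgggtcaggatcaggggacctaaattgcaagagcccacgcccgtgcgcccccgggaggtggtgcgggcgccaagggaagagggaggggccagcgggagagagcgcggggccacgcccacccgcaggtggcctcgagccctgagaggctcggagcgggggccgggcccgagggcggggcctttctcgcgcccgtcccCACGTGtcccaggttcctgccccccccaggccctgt
Odc1: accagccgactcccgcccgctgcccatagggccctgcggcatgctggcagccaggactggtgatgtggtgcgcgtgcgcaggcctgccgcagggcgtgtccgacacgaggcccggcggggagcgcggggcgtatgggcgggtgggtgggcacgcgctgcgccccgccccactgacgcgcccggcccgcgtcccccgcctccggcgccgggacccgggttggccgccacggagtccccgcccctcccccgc
The palindrome CACGTG, read on both strands, occurred once in the Ass1 window, 36 to 31 bases before the start, and was not in the Odc1 window, while 6.02% of 32851 windows of this length held it. The pattern TTCNNNGAA, searched on both strands, was in neither, and 7.02% of the windows held it. The core of the interferon-stimulated response element, searched likewise, was also in neither, and 2.98% of the windows held it. The Odc1 window held 35 CG dinucleotides and the Ass1 window 23, with a median of 6 over all windows. These are matches of letters in these windows and no measurement of binding.

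After filtering, 25657 cells remained, between 3843 and 8490 a library, with a median of 6251 to 8933 unique molecular identifiers (UMIs, 1 for each RNA molecule captured) per cell. They fell into 25 clusters, built without these genes and named from marker lists. The class used most below, monocyte-macrophage-like, joins 4 clusters. One was led by Ly6i, Inhba and Lpl (the Ly6i Lpl state), another by Ccl8, C1qa, C1qc and Ms4a7 (the C1q-high state), another by Plcb1, Vcan and F13a1 (the classical monocyte state), and cluster 16, led by the interferon-induced Rsad2 and Ifit2, stayed unnamed. The classical monocyte state scored equally on a list of non-classical monocyte genes, none of which was among its 10 leading genes. The class held 729 cells in ctxd18t, 224 in combod18t, 1362 in MRX, 4210 in CTX and 1148 in Combined. The makeup differed: 797 of the 1148 Combined cells and 2203 of the 4210 CTX cells were in the Ly6i Lpl state, against 93 of 1362 in MRX, 42 of 729 in ctxd18t and 13 of 224 in combod18t. In this class the 15 markers of its own list summed to 15000 to 20920 CPM (counts per 1000000 UMIs of the class). The 9 neutrophil markers summed to between 298.6 CPM (Combined) and 892 CPM (combod18t), with only Mmp9 at 0 and only in Combined, and the 10 T-like markers to between 31.1 CPM (MRX) and 117 CPM (ctxd18t) with none at 0. The 8 pDC-like markers summed to between 725 CPM (combod18t, with Spib at 0) and 979 CPM (CTX), and the 9 B-like markers to between 55.4 CPM (CTX) and 157 CPM (ctxd18t), with Fcmr at 0 in combod18t. NK-like markers summed to 6.45 to 44.95 CPM, epithelial-like to 4.73 to 8.47 and fibroblast-like to 1.01 to 3.57. The part of such RNA in the values below was not tested. Clusters 12 and 18, which held markers of 2 classes and 2.36 and 2.51 times the median UMIs of their libraries, were kept apart as mixed. In the on-chip scheme a set of barcode bases tells samples apart: ctxd18t carried the set of Combined and combod18t the set of CTX, and those libraries shared 21 and 34 cell barcodes, with 0 shared between any other pair. The protocol ties barcode sets to the other 4 samples only, and which set ctxd18t and combod18t should carry is not given in the sources used here. Whether those 2 labels were exchanged was not tested, and if they were, each ratio of combod18t against ctxd18t below would have the opposite sign. With 1 library per group no test between groups was possible: intervals are 95% and exact, cover counting error only, and say nothing of the spread between animals. Those of levels and ratios also treat each UMI as independent, so they leave out the spread between cells.

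Nos2, the inducible nitric oxide synthase, was rare in macrophages and highest in neutrophil-like cells. In monocyte-macrophage-like cells it stood at 24.1 CPM in ctxd18t (21.3 to 27.2), 20.5 in CTX (19.2 to 21.8), 16.8 in Combined (14.8 to 19.1), 4.67 in MRX (3.52 to 6.08) and 3.06 in combod18t (1.40 to 5.80). The first and last pairs of this order overlapped. On the log2 scale of CPM + 1, the ratio was -0.27 (-0.49 to -0.08) for Combined against CTX and -2.63 (-4.13 to -2.04) for combod18t against ctxd18t, with 9 counts in combod18t. The medians over the 11667 and 9821 genes with at least 50 counts in these pairs were 0.05 and 0.03. Over all kept cells the first was -0.87. Over 13 other settings the second lay between -4.35, with cells thinned, and -1.39, with a pseudocount of 10 CPM. So that depth does not set the share, cells were thinned to 1000 UMIs each: a Nos2 UMI was found in 1.80% of ctxd18t, 1.14% of CTX, 1.05% of Combined and 0.515% of MRX cells, and in 0 of 224 combod18t cells, where 3 counts would be 1.34% and the exact upper limit is 1.63%. Unthinned, 8.64% of ctxd18t, 6.94% of CTX, 6.88% of Combined, 2.23% of combod18t (5 cells) and 1.84% of MRX cells had one, against 0 to 0.392% of B-like cells, so the 0 is a count at the thinned depth. Median depths in the class were 8139.5 to 13150 UMIs, and in B-like cells, used as a background because they should lack Nos2, 4007 to 8220. Among thinned B-like cells 1 of 309 in MRX and 0 in the other libraries had one, and the intervals of the MRX, Combined and combod18t shares overlapped those of their own B-like cells at this depth. On the CPM scale B-like cells held 0.561 in MRX (0.0142 to 3.12), 0.367 in combod18t (0.00929 to 2.05) and 0 in the other libraries. Their intervals lay below the macrophage ones in every library but combod18t, where they overlapped. At 2000 UMIs per cell the macrophage shares were 2.81% in ctxd18t, 2.37% in CTX, 2.02% in Combined, 0.909% in combod18t and 0.741% in MRX. Neutrophil-like cells held 116 CPM in MRX (98.3 to 135), 92.7 in ctxd18t (79.2 to 108), 73.6 in Combined (47.1 to 109), 51.7 in CTX (32.4 to 78.2) and 50.5 in combod18t (40.2 to 62.5). The neutrophil order thus did not follow the macrophage order: MRX was the highest library in neutrophil-like cells and next to the lowest in macrophages. Neutrophil-like cells held 71.4% of all Nos2 counts in MRX and 82.2% in combod18t, against 33.1% in ctxd18t, 8.11% in Combined and 1.76% in CTX, where 92 such cells were kept. Among states with at least 20 cells, Nos2 was highest in cluster 16 in CTX and ctxd18t, at 41.1 and 76.7 CPM, and in the Ly6i Lpl state in Combined and MRX, at 20.8 and 8.64, where the interval of the next state overlapped. Within single states, Combined against CTX gave these values, whose differences from each other were not tested. Nos2 was at a log2 ratio of -1.63 in cluster 16 (-2.64 to -0.89, from 13 and 186 counts) and -1.08 in C1q-high cells (-2.49 to -0.24, from 8 and 163 counts). It was at -0.30 in the Ly6i Lpl state (-0.54 to -0.08) and 0.30 in the classical monocyte state (-1.05 to 1.61). In C1q-high cells, combod18t had 4 Nos2 counts and ctxd18t 122, a ratio of -2.51 (-4.78 to -1.49). The other 5 counts of combod18t were in its 8 cluster 16 cells, at 38.1 CPM (12.4 to 89.0), an interval that overlapped the 76.7 CPM of ctxd18t (59.98 to 96.5).

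**Figure D1:**
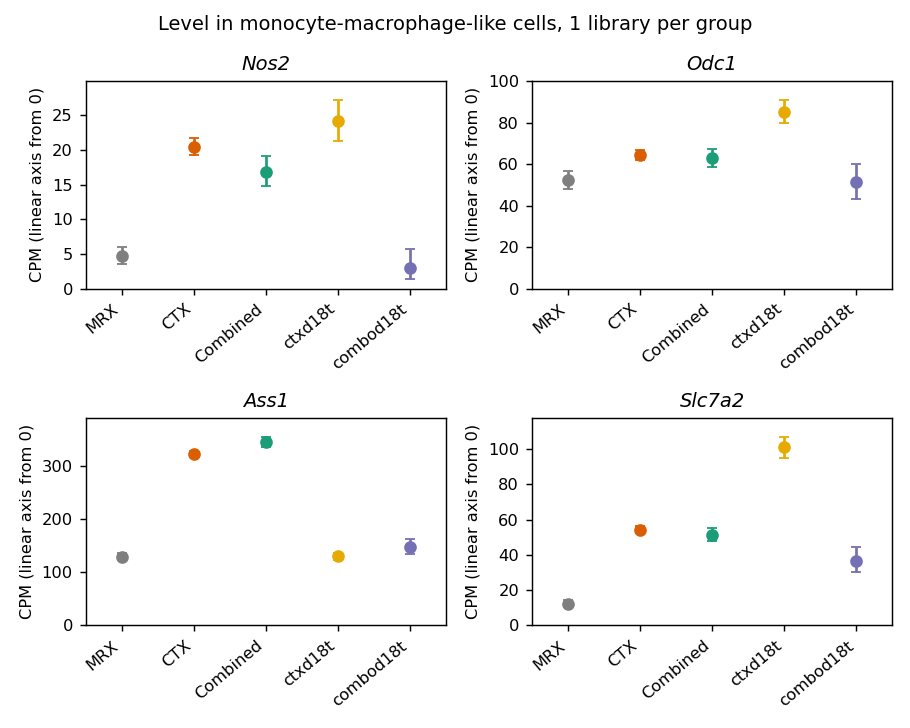
CPM of each of the 4 genes in monocyte-macrophage-like cells (vertical axes, linear from 0, a scale of its own per gene) in 5 libraries, 1 per group; points are the level and bars the exact 95% Poisson interval, which covers counting error only. Nos2, Slc7a2 and Odc1 are highest in ctxd18t, at 24.1, 101 and 85.3, while Ass1 is highest in Combined and CTX, at 345 and 323.

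Ass1, the enzyme that joins citrulline to aspartate, followed another order. It stood at 345 CPM in Combined (336 to 355) and 323 in CTX (318 to 328), against 148 in combod18t (134 to 163), 130 in ctxd18t (123 to 137) and 130 in MRX (123 to 136). The last 3 libraries overlapped with their neighbours in the order and lay below the first 2. The pairs differed little, by 0.10 (0.05 to 0.14) for Combined against CTX and 0.19 (0.03 to 0.34) for combod18t against ctxd18t. The first became -0.33 over all kept cells and the second -0.07 without the 5 richest cells of each library. Against MRX the log2 ratio was 1.31 (1.24 to 1.40) in CTX and 1.41 in Combined. With the clusters held in the same proportions these ratios were 0.64 and 0.60, below a log2 ratio of 1. Thinned, 28.0% of Combined and 25.5% of CTX cells had an Ass1 UMI, against 12.5% in combod18t, 10.9% in ctxd18t and 10.7% in MRX, and 0.697% to 1.59% of B-like cells. Unthinned, 84.4% of Combined, 79.6% of CTX, 53.2% of ctxd18t, 53.1% of combod18t and 45.2% of MRX cells had one, against 3.65% to 11.4% of B-like cells. The Ly6i Lpl state, which was rare in MRX, held the most in that library, at 315 CPM, and 379, 374 and 356 CPM in CTX, Combined and ctxd18t. Within that state, with 93 MRX cells, the ratio to MRX was 0.27 (0.09 to 0.45) in CTX and 0.25 (0.06 to 0.44) in Combined. It was larger in the other states. C1q-high cells, 609 in MRX, were at 1.04 (0.92 to 1.17) in CTX and 1.21 (1.05 to 1.38) in Combined. The classical monocyte state, 586 cells in MRX, was at 0.95 in both, and cluster 16 at 0.69 and 0.60. The classical monocyte state held 90.8 to 180 CPM. Among classes with at least 20 cells, cDC2-like cells and not macrophages held the most Ass1 in every library but CTX. They stood at 202 CPM in ctxd18t, 223 in combod18t, 165 in MRX, 309 in CTX and 396 in Combined. In CTX 36 migratory DC-like cells held the most, at 334 (282 to 392), an interval that overlapped the macrophage one. Those of ctxd18t held 194.5. Among T-like cells it peaked in cluster 9, led by Il1rl1, Foxp3 and Il2ra, genes of regulatory T cells, at 270 CPM in ctxd18t, 281 in combod18t, 259 in MRX, 383 in CTX and 378 in Combined. Neutrophil-like cells held 98.6 CPM of Ass1 in CTX and 153 in Combined, against 9.38 in MRX, 25.0 in ctxd18t and 15.8 in combod18t, from 13 to 50 counts a library. The other T-like clusters held 0 to 179 CPM, B-like cells 8.15 to 20.9 and NK-like cells 9.37 to 26.6.

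Slc7a2, the cationic amino acid transporter CAT2, stood at 101 CPM in ctxd18t (95 to 107), 54.2 in CTX (52.1 to 56.3), 51.5 in Combined (47.8 to 55.4), 36.7 in combod18t (30.1 to 44.3) and 12.2 in MRX (10.2 to 14.3). CTX and Combined overlapped and the other neighbours did not, by intervals that leave out the spread between cells. The 1095 counts of ctxd18t were in 147 cells, up to 73 in 1 cell, and the 108 of combod18t in 28 cells, up to 25. Combined against CTX was -0.07 (-0.19 to 0.05), and -0.74 over all kept cells, and combod18t against ctxd18t -1.44 (-1.76 to -1.17), which was -1.06 with cells thinned, -2.36 without the 5 richest cells and -2.55 over all kept cells. CTX and Combined exceeded MRX by 2.07 (1.91 to 2.41) and 2.0 (1.82 to 2.35). Thinned, 0.662% of MRX cells had a Slc7a2 UMI against 6.77% in ctxd18t, 4.07% in CTX, 3.93% in Combined and 3.57% in combod18t, and no thinned B-like cell of any library had one. At 2000 UMIs per cell the shares were 2.08% in MRX, 8.58% in ctxd18t, 6.75% in CTX, 7.11% in Combined and 4.09% in combod18t, so the distance of MRX from the others depended on the thinned depth. Unthinned, 4.41% of MRX, 20.6% of CTX and 24.0% of Combined cells had one. In C1q-high cells it stood at 154 CPM in ctxd18t, 74.1 in combod18t, 54.8 in CTX, 45.1 in Combined and 19.7 in MRX. combod18t was lower than ctxd18t by -1.04 in those cells (-1.36 to -0.76). In classical monocyte cells Slc7a2 had 1 count in combod18t and 150 in ctxd18t, a ratio of -4.58 (-11.01 to -3.20). In ctxd18t 66 of the 150 counts were in 1 cell, and the shares of positive cells, 7.06% (4.31 to 10.8) and 1.12% (0.0284 to 6.10) in combod18t, overlapped. For this pair over the class, the log2 ratio of thinned shares was -0.92, from 8 and 49 positive cells, and that of mean UMIs per thinned positive cell -0.15. The intervals of the thinned shares, 1.55 to 6.92% in combod18t and 5.05 to 8.85% in ctxd18t, overlapped. Unthinned, 12.5% (8.47 to 17.6) of combod18t and 20.2% (17.3 to 23.3) of ctxd18t cells were positive, which also overlapped, with means of 3.86 and 7.45 UMIs per positive cell at median depths of 12512 and 13150. Its level in the Ly6i Lpl state was 62.1 in CTX and 58.6 in Combined, the highest of the states in both, though in Combined its interval (53.9 to 63.5) overlapped that of C1q-high cells (36.1 to 55.6). Among classes with at least 20 cells, monocyte-macrophage-like cells were its highest in each of the 5 libraries, while in MRX 17 migratory DC-like cells held 35.7 CPM (11.6 to 83.2) from 5 counts, and T-like, NK-like and B-like cells held 0 to 1.11 CPM. Slc7a2 was also present in cDC2-like cells, at 43.3 CPM in CTX (38.4 to 48.7), 32.4 in Combined (34 of its 48 counts in 1 cell), 28.4 in ctxd18t, 14.3 in combod18t and 1.52 in MRX, and in neutrophil-like cells, at 32.9 in CTX (17.97 to 55.1, an interval that overlapped the macrophage one), 31.1 in ctxd18t, 9.19 in Combined, 0.608 in combod18t and 0 in MRX.

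Odc1, ornithine decarboxylase, was higher in lymphocytes than in macrophages in every library. In monocyte-macrophage-like cells it stood at 85.3 CPM in ctxd18t (79.9 to 91.0), 64.5 in CTX (62.2 to 66.8), 62.8 in Combined (58.7 to 67.1), 52.2 in MRX (48.2 to 56.5) and 51.3 in combod18t (43.4 to 60.1). CTX overlapped with Combined, and MRX with combod18t. Combined against CTX was -0.04 (-0.15 to 0.07) and combod18t against ctxd18t -0.72 (-0.99 to -0.49). The former was above 0 in 5 of 13 other settings, and the latter shrank to -0.18 with each library clustered separately and to -0.24 with the mixed clusters kept. In C1q-high cells that second ratio was -0.81 (-1.17 to -0.49), and in the classical monocyte state -0.15 (-0.62 to 0.28). The first ratio was 0.70 in the classical monocyte state (0.27 to 1.155, from 68 and 125 counts). It was -0.01 in the Ly6i Lpl state, -0.10 in C1q-high cells and -0.27 in cluster 16, with intervals that held 0. Thinned, 4.91% to 7.74% of monocyte-macrophage-like cells and 10.4% to 16.8% of B-like cells had an Odc1 UMI, and unthinned 29.96% to 51.6% and 37.7% to 62.5%. Its level was 132 to 219 CPM in B-like, 105 to 191 in T-like and 134 to 250 in NK-like cells, against 28.0 to 56.1 in neutrophil-like cells. The same regulatory T cell cluster 9 held 296 CPM in ctxd18t, 232 in combod18t, 181 in MRX, 245 in CTX and 286 in Combined. The 130 epithelial-like cells of ctxd18t held 364 CPM, the highest Odc1 level of any class with at least 20 cells.

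**Figure D2:**
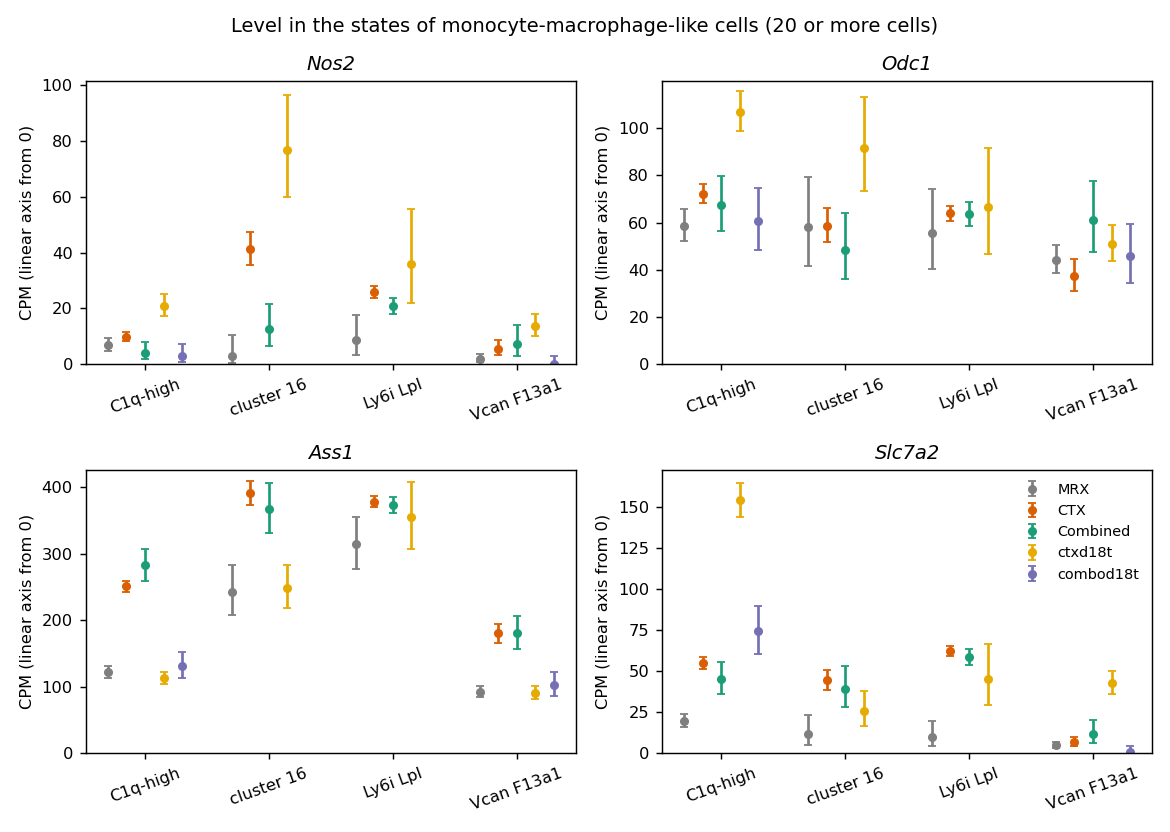
CPM of each gene (vertical axes, linear from 0, a scale of its own per gene) in the 4 states of monocyte-macrophage-like cells (horizontal), colours for libraries, states with at least 20 cells; bars are exact 95% Poisson intervals, counting error only. Slc7a2 is highest in C1q-high cells of ctxd18t, at 154, Nos2 in cluster 16 of ctxd18t, at 76.7, and Odc1 in C1q-high cells of ctxd18t, at 107.

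**Figure D3:**
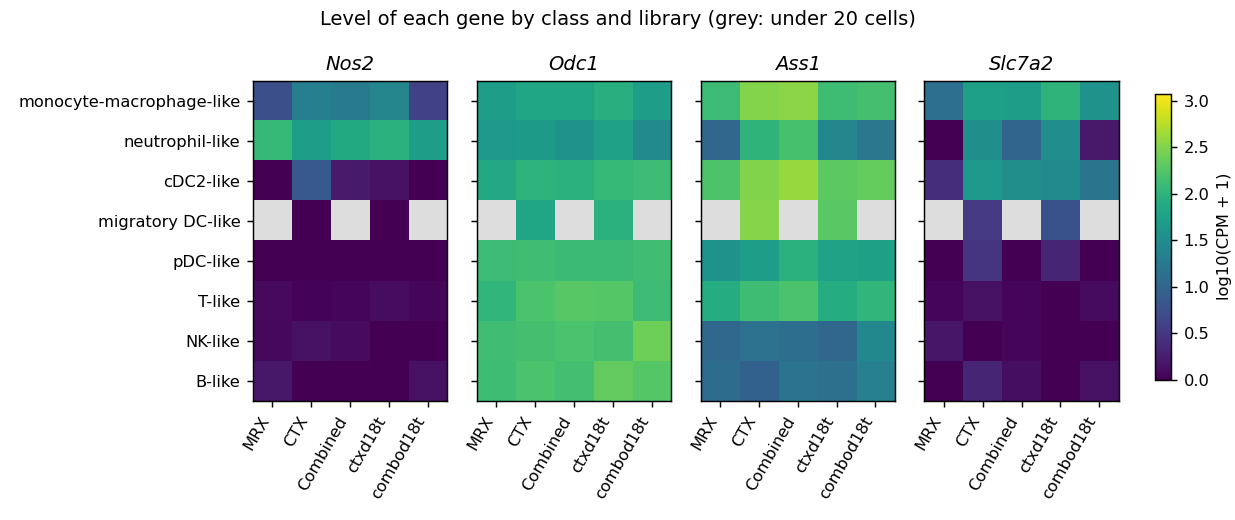
Level of each gene as log10(CPM + 1) (colour) in 8 cell classes (rows) and 5 libraries (columns); grey marks a class with under 20 cells in the library. Slc7a2 is brightest in monocyte-macrophage-like cells, Nos2 in neutrophil-like cells, and Odc1 is brighter in T-like, NK-like and B-like cells than in neutrophil-like ones.

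Counted together over the monocyte-macrophage-like class, 0 of the 4 genes differed between Combined and CTX by a log2 ratio of at least 1, a size that 0.463% of all genes tested reached downward and 0.146% upward. For combod18t against ctxd18t 2 of 4 were lower, Nos2 and Slc7a2, against 2.22% of all genes, and none was higher (0.703%). CTX exceeded MRX for 3 of 4, Nos2, Ass1 and Slc7a2, against 1.49% of all genes, and none was lower (1.41%). Combined exceeded MRX for the same 3, against 2.47%, and none was lower (3.13%). The last 2 comparisons share MRX. All 4 genes had at least 50 counts in each comparison, and since they were chosen with results known, these shares describe them and test nothing. With the clusters held in the same proportions, only Slc7a2 stayed past 1 in Combined against MRX, at 1.75, with Nos2 at 0.87 and Ass1 at 0.60, and in CTX against MRX Nos2 and Slc7a2 did, at 1.28 and 1.74. Nos2 in Combined against MRX was 1.65 and dropped below 1 in 3 of 13 other settings, the lowest 0.17 over all kept cells. Within C1q-high cells, the largest state of MRX, it was -0.61 (-2.04 to 0.41), from 8 and 36 counts. In the other states it was above 0, from 7, 10 and 2 MRX counts. It was 1.18 (0.20 to 2.60) in the Ly6i Lpl state, 1.45 (0.31 to 3.34) in the classical monocyte state and 1.80 (-0.03 to 5.31) in cluster 16.

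Slc7a2 was more frequent in cells with a Nos2 UMI than in cells without in 2 libraries. In thinned CTX cells of the class, 8 of 48 Nos2-positive cells also had Slc7a2 (16.7%, 7.48 to 30.2), against 3.92% (3.35 to 4.56) of Nos2-negative cells. In ctxd18t 4 of 13 did (30.8%, 9.09 to 61.4), against 6.33% (4.65 to 8.38). In Combined 1 of 12 and in MRX 1 of 7 Nos2-positive cells had Slc7a2, with intervals that overlapped those of the negative cells, and combod18t had no Nos2-positive cell. This was the only one of the 6 pairs of genes whose intervals lay apart in CTX and in ctxd18t when the cells were split by the gene named first in the order Nos2, Odc1, Ass1, Slc7a2, and in MRX and Combined none did. Split by Slc7a2 instead, Nos2 was in 4.68% (2.04 to 9.01) of 171 positive CTX cells against 0.991% (0.709 to 1.35) of the rest, and in 8.16% (2.27 to 19.6) of 49 positive ctxd18t cells against 1.33% (0.611 to 2.52), where the intervals overlapped. By the same split, 33.9% (26.9 to 41.5) of positive CTX cells had Ass1 against 25.1% (23.8 to 26.5) of the rest. Cells of 1 library share their source, so these shares describe the cells of each library. No share over all genes was computed for such splits, so whether this pair stands out is not known. The splits pool the 4 states, which differ in both genes. In CTX Nos2 and Slc7a2 stood at 5.66 and 6.56 CPM in the classical monocyte state and at 25.8 and 62.1 in the Ly6i Lpl state. The part of the states in the overlap was not tested.

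Other genes of the pathway were read from lists. Of the arginine and citrulline enzymes, the proline branch, the polyamine enzymes and regulators, and the arginine, cationic amino acid and polyamine transporters, lists of 11, 6, 14 and 12 genes, none reached a log2 ratio of 1 in any of the 4 comparisons among those with enough counts, 3 to 12 a list. Few genes did in all, 0.609% either way for Combined against CTX, 2.92% for combod18t against ctxd18t, 2.9% for CTX against MRX and 5.61% for Combined against MRX, so these lists are not set apart by it. Gatm and Asl in the first pair and Srm in the second lay outside the 5th to 95th percentiles of all genes, which were -0.44 and 0.42 in the first and -0.64 and 0.58 in the second. Gatm, which uses arginine to make the creatine precursor, was 743 CPM in CTX and 495 in Combined, a ratio of -0.59, and 704 and 672 in ctxd18t and combod18t, a ratio of -0.07. Asl, which completes the arginine synthesis that Ass1 begins, was at 0.46 and -0.00. Smox, spermine oxidase, was at 0.38 and -0.08, and Srm, spermidine synthase, at -0.07 and -0.80. Slc7a1, the constitutive arginine carrier CAT1, was at 0.14 and -0.43. The cofactor genes of nitric oxide synthesis Pts and Spr were at 0.29 and 0.23 for Combined against CTX, and at 0.43 and -0.11 for combod18t against ctxd18t.

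Of the 22 receptors and factors known to act upstream of these enzymes, Pparg, a nuclear receptor that supports alternative activation, was past a log2 ratio of 1 in both pairs. It stood at 18.3 CPM in CTX and 7.95 in Combined, a ratio of -1.11, and at 47.9 in ctxd18t and 14.3 in combod18t, a ratio of -1.68. Egr2 was at 25.4 in ctxd18t and 8.83 in combod18t, a ratio of -1.43, and at 0.29 in the other pair. Of the list, 1 of 22 genes was lower in Combined than in CTX, against 0.463% of all genes. In combod18t 2 of 21 were lower than in ctxd18t, against 2.22%. None was higher in either pair, where 0.146% and 0.703% of all genes were. The interleukin-4 receptor gene Il4ra was at -0.39 and -0.44. Against MRX, 2 of the list, Irf1 among them, were past 1 upward in CTX and in Combined (all genes 1.49% and 2.47%). Downward there were 0 in CTX (1.41%) and 1, Pparg, in Combined (3.13%). Among genes of alternative activation, a list that also holds Egr2, 6 of the 10 with enough counts were lower in combod18t than in ctxd18t, against 2.22% of all genes, with a median of -1.56 that is the same with Retnla at a floor of 3 counts, and 1 was lower and 1 higher in Combined than in CTX (all genes 0.463% and 0.146%), with a median of -0.28. Retnla had 432 counts in CTX and 21 in Combined, and 62 in ctxd18t and 0 in combod18t. Ccl24 was at 171 and 37.7 CPM in ctxd18t and combod18t, a ratio of -2.15, Pdcd1lg2 at 38.4 and 8.15, a ratio of -2.11, and Cd163 at 20.2 and 0.339, from 219 counts and 1 count. Of 15 hypoxia and glycolysis genes 6 were lower in combod18t, again against 2.22% of all genes, with a median of -0.73. Among them were Egln3 at -2.33, Ankrd37 at -1.67, Bnip3 at -1.60 and Ero1a at -1.52. None passed in Combined against CTX or CTX against MRX, while in Combined against MRX Egln3 was lower and Slc2a1 higher (all genes 3.13% and 2.47%). Of 9 lipid-associated macrophage genes 3 were lower in combod18t (all genes 2.22%), Fabp5 at -2.11, Gpnmb at -1.84 and Spp1 at -1.38. None was lower in Combined against CTX (0.463%). Against MRX Spp1, Gpnmb and Trem2 were lower in both CTX and Combined (1.41% and 3.13%), with 2 and 1 of the 9 higher (1.49% and 2.47%). Of classical activation genes, none of 12 passed in Combined against CTX and 2 of 11 were lower in combod18t (all genes 2.22%), Cxcl10 at -1.74 and Socs1 at -1.55. Against MRX 7 of 12 were above by at least 1 in CTX and in Combined, medians 1.66 and 1.88, where 1.49% and 2.47% of all genes were. Of alternative activation genes 4 of 10 were above MRX in CTX (all genes 1.49%) and 3 of 8 in Combined (2.47%), with medians of 0.58 and 0.92. In each 1, Fn1, was below (1.41% and 3.13%). Cxcl9, a chemokine on the classical activation list, stood at 1043 CPM in CTX and 305 in MRX.

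**Figure D4:**
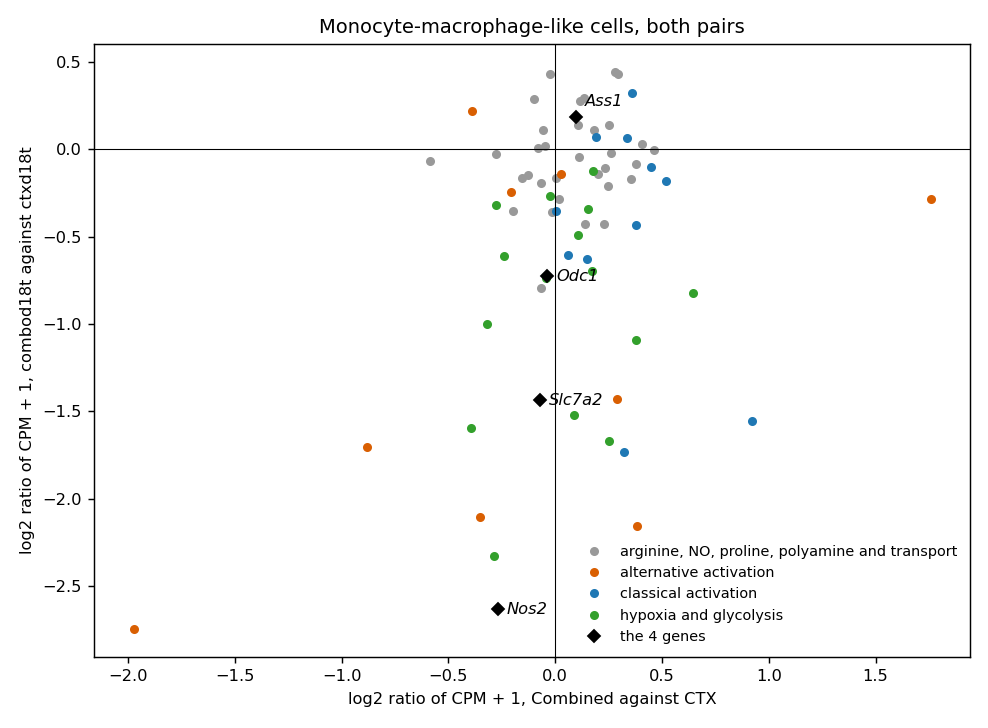
log2 ratio of CPM + 1 in monocyte-macrophage-like cells for Combined against CTX (horizontal) and combod18t against ctxd18t (vertical); black diamonds are the 4 genes, coloured points genes of the lists with at least 50 counts in both pairs. Nos2 and Slc7a2 lie at -2.63 and -1.44 on the vertical axis and near 0 on the horizontal one, the other pathway genes drawn lie between -1 and 1 on both axes, and alternative activation and hypoxia genes reach below -1 on the vertical axis.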

How the data were processed

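Per the labels' protocols the authors turned reads into matrices by Cell Ranger 9.0.1, and the deposited files hold whole-number UMI counts per gene and cell, not normalised; Seurat 5.2.0 and build GRCm39 stand in the submitters' processing notes, with no role given there. Libraries held 39820290 to 100733879 counts. Cells with at least 200 genes and at most 15% mitochondrial counts were kept. Doublets were scored with Scrublet, whose automatic call took less than 0.5% per library and was replaced by removal of the top 5% of scores. With scanpy 1.11.5, counts were scaled to 10000 per cell and logged, 2000 variable genes without the 6 members were z-scaled, and 30 components with 15 neighbours were clustered by Leiden at resolution 1. The z-scaling, the second rule for mixed clusters (at least 2 markers of another class among the 10 leading genes within its class, at over 1.5 times the library's UMIs) and the unnamed status of cluster 16 were decided after seeing the data. Counts were summed per library and class to CPM. Log2 ratios use CPM + 1, with exact conditional binomial intervals, Poisson intervals for levels and Clopper-Pearson intervals for shares. Thinning drew 1000 UMIs per cell and left out shallower cells. Simulated Poisson counts for Combined against CTX over 11667 genes kept direction for 100.0% of 200 changed genes. The planted log2 ratios were all at least 1 in size, and the noise was the counting error that the intervals assume. The simulation therefore checks the calculation only and cannot speak to smaller ratios or to the spread between cells or animals. The members and lists were chosen with earlier results of these data known. Named genes are the members and up to 4 per list with the largest ratio in either pair. Cxcl9, Fn1 and Slc2a1 were named outside this rule, after their values were seen. VC was not analysed here, and 2 of the 6 members and 2 genes of the lists are not reported here.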

Additional observations from a re-analysis of the deposited data

How the results depend on the processing

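The number of the 4 genes past a log2 ratio of 1 stayed within 1.5 times its value under all 13 alternatives for Combined against CTX, combod18t against ctxd18t and CTX against MRX. For Combined against MRX it was 1 with the same mix of clusters, against 3. The z-scaling used in the clustering was decided after seeing the data, and leaving it out moved none of these counts by over 1.5 times. Of 208 values of the genes' ratios under the alternatives, 156 stayed within their counting interval and 52 moved beyond it. Of the shares of cells with a UMI, taken without thinning or at 2000 UMIs in place of 1000, 35 moved beyond their interval and 5 did not. Of the shares of all genes past a log2 ratio of 1 in either direction, taken at count minimums of 1 and 200, 4 moved by over 1.5 times and 4 did not; the shares in 1 direction moved too, as for combod18t against ctxd18t, where 2.22% lower became 1.37% at 200 counts and 0.703% higher became 0.289%, or 1.41% at 1 count. None of the ratios past 1 in size changed sign. The causes were not tested. The number of cells limits combod18t, whose class held 224, and few counts limit Nos2, which had 9 there. No paired analysis was possible because each group is 1 library. Leaving out a replicate was not possible for the same reason.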
